A study of Homo sapiens with 8 samples.

Results

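Genes that mark or control the epithelial and mesenchymal states of cells were followed here, namely CDH1, EPCAM, JAM3, CDH2, VIM, FN1, ZEB1, ZEB2, SNAI1 and SNAI2. They were taken by name, and each symbol matched a single gene identifier, so that 10 of the 58233 genes in the table of counts were members. RNA-seq had been made from MCF10A-Hras cells, a human breast epithelial line transformed with the H-Ras oncogene, which every group carries. The groups were control (WT) cells and RBM6-KO1 cells, each left untreated or collected 12 h after 5 Gy of ionizing radiation (IR) from an X-ray machine, with 2 biological replicates (A and B) per group and 8 libraries in all. RBM6-KO1 (KO1) is 1 clone, grown from a single cell after a Cas9 nickase had been directed to RBM6 with a pair of guide RNAs, so the knockout and the history of that clone cannot be told apart. Genotype and IR are the 2 factors, and the design asks which genes differ between the genotypes before and after IR, and which genes respond to IR in each genotype.

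Epithelial cells are held together by adherens junctions, whose core is E-cadherin, the product of CDH1, and many of them carry EPCAM on their surface. In the epithelial-mesenchymal transition, cells lose these contacts and make N-cadherin (CDH2), the intermediate filament vimentin (VIM) and the matrix protein fibronectin (FN1). The zinc finger and homeobox factors ZEB1 and ZEB2 and the zinc finger factors SNAI1 (Snail) and SNAI2 (Slug) bind E-box sequences in the promoters of epithelial genes and repress them. Basal breast epithelial cells are known to express SNAI2, and cultured MCF10A cells are known to express vimentin and fibronectin, so these markers do not by themselves mark a mesenchymal cell in this line.

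The E-box bound by ZEB and SNAI factors was searched for in the promoters of the members, as its letters CAGGTG on either strand (CACCTG on the other). RefSeq promoter windows on GRCh38.p14, each 300 bases long from 250 bases before a transcript's start to 50 after it, matched CDH2, VIM, FN1, ZEB1 and ZEB2, 5 of the 10 members, with 12 windows. CDH1, EPCAM, JAM3, SNAI1 and SNAI2 were not matched. Only 2 of the 12 windows held the E-box, both of them of ZEB1, and 20.6% of all 35116 promoter windows held it. They are shown because ZEB1 is itself an E-box factor and because its level differed between the genotypes. The E-box is in capitals, all sequences run 5′ to 3′ on the plus strand, and the match in the first stretch begins 57 bases before the start of that transcript.
ZEB1 window 1, upstream part (chr10:31318167-31318416): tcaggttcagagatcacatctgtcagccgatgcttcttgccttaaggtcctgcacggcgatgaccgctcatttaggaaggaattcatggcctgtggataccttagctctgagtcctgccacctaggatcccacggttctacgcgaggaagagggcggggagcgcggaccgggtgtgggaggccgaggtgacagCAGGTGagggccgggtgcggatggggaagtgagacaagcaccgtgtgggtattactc
ZEB1 window 3, match 1 (chr10:31318966-31318995): ccccaccaCACCTGaggaaaacttttccct
ZEB1 window 3, match 2 (chr10:31319119-31319148): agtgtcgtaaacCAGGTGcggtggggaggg
ZEB1 window 3, match 3 (chr10:31319236-31319265): tggcggatggcccCAGGTGtaagcgcagaa
A match describes these letters only, and binding of a factor was not measured.

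Counts on genes summed to between 15355281 and 29832009 per library, the highest being replicate B of control cells after IR. Levels are given as CPM, TMM-normalized counts relative to library size, and 3 counts, the limit that a count of 0 allows, correspond to 0.0965 to 0.204 CPM. This limit covers counting error only. A gene was called where edgeR's quasi-likelihood test gave a Benjamini-Hochberg adjusted p under 0.05 over all genes tested together with at least a 2-fold change. That adjusted p is written below as edgeR adjusted p, and SE is the standard error of a log2 change. Without IR, RBM6 itself had 67.9 ± 1.35 CPM (SD, n = 2) in the control line and 62.4 ± 1.18 in KO1, and counts over the whole gene do not show the edit. The epithelial label held by its markers: the summed level of 11 breast epithelial markers (keratins, TP63, EGFR, LAMB3 and ITGB4) lay between 11011 and 17143 CPM in every library. That sum was lower in KO1 cells within each treatment. It was 12519 to 13101 CPM against 14358 to 17143 in control cells without IR, and 11011 to 11140 against 12904 to 14511 after IR. LAMB3 was its largest part in untreated cells, with means of 8531 CPM in control and 6612 in KO1 cells.

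The 10 members differed widely in level. To compare genes, CPM was divided by the length of the canonical transcript in kilobases (RPKM). In untreated control cells VIM was the most abundant at 434 ± 23.7 RPKM (SD, n = 2), followed by FN1 at 123 ± 2.01, SNAI2 at 59.2 ± 4.80 and EPCAM at 15.6 ± 2.42 RPKM. CDH2 followed at 5.73 ± 0.211 and CDH1 at 3.99 ± 0.882 RPKM. JAM3, ZEB1, SNAI1 and ZEB2 were the lowest, with 1.64, 1.45, 1.18 and 0.74 RPKM. The libraries of neighbours did not overlap from VIM down to JAM3, while ZEB1, at 0.822 and 2.07 RPKM, overlapped JAM3, SNAI1 and ZEB2. With the length of all annotated exons in place of the canonical transcript, CDH1 stood at 3.16 and CDH2 at 2.68 RPKM, with overlapping libraries, so the order of the 2 cadherins rests on the length used. The mesenchymal markers VIM and FN1 and the factor SNAI2 thus held the first 3 places in control cells, and they held the same places in the other 3 groups.

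Between untreated KO1 and control cells, 5 of the 10 members were called, against 3.12% of all 15556 genes tested. The members were chosen with earlier results of these data known, so no excess over all genes can be read from such shares. The epithelial surface protein EPCAM, the junction protein JAM3 and the repressor SNAI1 were lower in KO1 cells, where 1.97% of all genes were called lower, and the repressors ZEB1 and ZEB2 were higher. CDH1, CDH2, VIM, FN1 and SNAI2 were not called. After IR, 2 of the 10 members were called, EPCAM and JAM3, both lower in KO1 cells, against 1.17% of all 15587 genes called in either direction and 0.815% called lower. Over all 8 libraries, the 2 genotypes did not overlap for EPCAM, JAM3, ZEB1 and SNAI1, 4 of the 10 members, against 11.1% of the 16549 genes kept. Tested against a 2-fold null rather than no change (glmTreat in edgeR), EPCAM in untreated cells and JAM3 after IR were the member calls that remained.

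EPCAM (ENSG00000119888, chromosome 2, 47345158 to 47387601, plus strand) encodes a cell adhesion molecule of epithelia. It had 21.4 and 26.7 CPM in control libraries without IR and 19.6 and 21.5 with it, against 6.59 and 7.48 in KO1 libraries without IR and 6.35 and 5.29 with it. Every control library was therefore above every KO1 library. In untreated cells EPCAM fell by 1.79 on the log2 scale, 3.46-fold (SE 0.22, edgeR adjusted p 4.43e-05). After IR the log2 change was -1.82 (SE 0.22, edgeR adjusted p 0.0151). Without 1 library at a time it ranged from -1.94 to -1.61 in untreated cells and from -1.96 to -1.70 after IR, and it was called in every one of these fits. IR itself did not change EPCAM past the threshold, with log2 changes of -0.23 in control cells and -0.29 in KO1 cells (edgeR adjusted p 0.518 and 0.433).

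JAM3 (ENSG00000166086, chromosome 11, 134069071 to 134152001, plus strand) encodes junctional adhesion molecule C, a surface protein of cell contacts that is made by epithelial, endothelial and mesenchymal cells alike. It had 6.02 and 6.33 CPM in control libraries without IR and 8.22 and 8.47 with it, against 1.69 and 1.43 in KO1 libraries without IR and 0.619 and 0.588 with it. These are 98 and 118, 127 and 263, 30 and 21, and 12 and 12 counts. The KO1 libraries lay below all control libraries, and within each genotype the irradiated libraries lay apart from the untreated ones, above them in control cells and below them in KO1 cells. JAM3 fell 3.96-fold in untreated KO1 cells, a log2 change of -1.99 (SE 0.31, edgeR adjusted p 0.000587). After IR it fell 13.7-fold, a log2 change of -3.77 (SE 0.30, edgeR adjusted p 0.00505), with a range of -3.81 to -3.74 when single libraries were left out. JAM3 was ranked 9 by p among all genes in the comparison after IR.

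The response of JAM3 to IR had opposite signs in the 2 genotypes, with a log2 change of 0.43 in control cells (SE 0.25, edgeR adjusted p 0.298) and -1.38 in KO1 cells (SE 0.45, edgeR adjusted p 0.0865). It was the only member whose irradiated libraries moved apart from the untreated ones in opposite directions in the 2 genotypes, as did 1.47% of all genes kept. The difference between the responses was -1.80 (SE 0.38, unadjusted p = 0.000707 from edgeR's quasi-likelihood test over the 8 libraries), and JAM3 had the smallest p of all 16549 genes in this test. After Benjamini-Hochberg adjustment no gene passed in edgeR (0% of genes called, adjusted p = 0.99998 for JAM3) or in DESeq2, and 306 genes, or 1.85%, had an unadjusted p under 0.05. With all 8 libraries in 1 fit the IR response of JAM3 in KO1 cells was called, at -1.37 (edgeR adjusted p 0.0388). JAM3 shares 1889 exonic bases, 35.6% of its exon sequence, with NCAPD3, a condensin subunit gene on the opposite strand, and it is not stated whether the counting used strand. NCAPD3 had 57.2 ± 0.460 CPM (SD, n = 2) in untreated control and 51.0 ± 8.69 in untreated KO1 cells, with a log2 change of -0.18 (edgeR adjusted p 0.651), and one of -0.20 after IR (adjusted p = 0.850). The part of the overlap in the JAM3 values was not tested.

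CDH1 (ENSG00000039068, chromosome 16, 68737292 to 68835537, plus strand) is the member that was called with IR, in control cells only. E-cadherin mRNA stood at 16.2 and 22.2 CPM in untreated control cells and at 38.01 and 49.5 in control cells after IR, and at 15.8 and 12.2 CPM in untreated KO1 cells and 18.9 and 28.2 after IR. The irradiated libraries lay above the untreated libraries of the same genotype in both cases. The same held for CDH2 and FN1, which were not called with IR. In control cells CDH1 rose 2.26-fold, a log2 change of 1.18 (SE 0.23, edgeR adjusted p 0.0162), and it was the only 1 of 10 members called, against 3.59% of all 15412 genes tested. The value was 0.97 without replicate B of control cells after IR and 0.95 without replicate A of untreated control cells. CDH1 was no longer called in either of these fits. With trends in GC content, length and expression removed the value was 0.98. In KO1 cells the log2 change was 0.73 (SE 0.24, edgeR adjusted p 0.0858), and none of the 9 members tested was called there, against 3.11% of all 15598 genes. Without replicate A of irradiated KO1 cells it was 1.01 and was called. The difference in response between the genotypes was -0.44 (SE 0.35, edgeR unadjusted p 0.240).

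Between the genotypes, CDH1 was not called. Its log2 change in KO1 cells was -0.47 before IR (SE 0.22, edgeR adjusted p 0.267) and -0.89 after IR (SE 0.25, edgeR adjusted p 0.198). Without replicate A of irradiated control cells the latter was -1.08 and was called (edgeR adjusted p 0.00340).

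N-cadherin, encoded by CDH2, is the cadherin that takes the place of E-cadherin in mesenchymal cells. It had 22.4 and 23.6 CPM in control libraries without IR and 24.7 and 36.2 with it, against 13.0 and 14.4 in KO1 libraries without IR and 20.5 and 26.5 with it. In untreated cells both KO1 libraries lay below both control libraries, while after IR the genotypes overlapped. The log2 change in untreated KO1 cells was -0.76 (SE 0.19), with an adjusted p of 0.0234 in edgeR but under a 2-fold change. After IR it was -0.37 (SE 0.25, edgeR adjusted p 0.698). The response to IR was 0.40 in control cells (edgeR adjusted p 0.286) and 0.76 in KO1 cells (edgeR adjusted p 0.0547). With trends in GC content, length and expression removed, these responses were 0.13 and 0.54. CDH2 lies on chromosome 18, whose 226 genes tested had the highest median log2 change of 23 chromosomes with IR in control cells, 0.19. The part of that shift in the CDH2 value was not tested.

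The ratio of the 2 cadherins, CDH1 over CDH2 per length of the canonical transcript, was 0.604 and 0.785 in untreated control cells and 1.28 and 1.14 in control cells after IR. In KO1 cells it was 1.02 and 0.705 before and 0.772 and 0.889 after IR. By this length E-cadherin mRNA exceeded N-cadherin mRNA in both irradiated control libraries and in replicate A of untreated KO1 cells, and the KO1 libraries before and after IR overlapped. With all exons as the length, the ratios were higher in every library, 1.02 and 1.33 in untreated control cells and 2.17 and 1.93 after IR.

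Vimentin and fibronectin were the mesenchymal structural members. VIM had 972 and 899 CPM in control libraries without IR and 939 and 716 with it, against 1016 and 1010 in KO1 libraries without IR and 1040 and 853 with it. The untreated KO1 libraries lay just above the untreated control ones, and the genotypes overlapped after IR. None of its comparisons passed, with log2 changes of 0.10 and 0.20 between the genotypes (edgeR adjusted p 0.777 and 0.817) and of -0.19 and -0.11 with IR (adjusted p = 0.540 and 0.643). FN1 spread more between replicates, with 1044 and 1020 CPM in control libraries without IR and 1343 and 2230 with it, against 1867 and 1017 in KO1 libraries without IR and 1972 and 3039 with it. The irradiated libraries of each genotype lay above its untreated ones, and the genotypes overlapped both before and after IR. The log2 change of FN1 with IR was 0.78 in control cells (SE 0.22, edgeR adjusted p 0.0597) and 0.78 in KO1 cells (SE 0.28, edgeR adjusted p 0.107). These values rested on single libraries: FN1 was called at 1.12 in control cells without replicate A of the irradiated ones, and at 1.08 and 1.30 in KO1 cells without replicate A of the irradiated or of the untreated ones. Between the genotypes the log2 change of FN1 was 0.47 before IR (edgeR adjusted p 0.211) and 0.49 after IR (adjusted p = 0.651), and the first became -0.049 without replicate A of untreated KO1 cells.

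The repressors of the ZEB family were higher in untreated KO1 cells. ZEB1 (ENSG00000148516, chromosome 10, 31318495 to 31529814, plus strand), whose promoter holds the E-boxes printed above, had 12.3 and 4.88 CPM in control libraries without IR and 5.50 and 10.0 with it, against 15.4 and 20.5 in KO1 libraries without IR and 15.4 and 14.2 with it. All KO1 libraries lay above all control libraries, although the 2 untreated control libraries were themselves far apart. ZEB1 rose 2.08-fold in untreated KO1 cells, a log2 change of 1.05 (SE 0.30, edgeR adjusted p 0.0480). After IR the log2 change was 0.91 (SE 0.30, edgeR adjusted p 0.300). In untreated cells the value was 0.54 and not called without replicate B of the control cells, 0.85 and not called without replicate B of the KO1 cells, and 1.85 without replicate A of the control cells. The call was also lost with all 8 libraries in 1 fit (edgeR adjusted p 0.202) and in DESeq2's Wald test (adjusted p = 0.512).

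ZEB2 (ENSG00000169554, chromosome 2, 144364364 to 144521057, minus strand) had 8.78 and 4.93 CPM in control libraries without IR and 7.90 and 13.8 with it, against 16.04 and 11.9 in KO1 libraries without IR and 14.8 and 22.1 with it. Within each treatment the genotypes did not overlap. ZEB2 rose 2.04-fold in untreated KO1 cells, a log2 change of 1.03 (SE 0.27, edgeR adjusted p 0.0286), and after IR the log2 change was 0.75 (SE 0.32, edgeR adjusted p 0.451). In untreated cells it was 0.67 and 0.77, and not called, without replicate B of the control cells or replicate A of the KO1 cells, and 1.49 without replicate A of the control cells. With all 8 libraries in 1 fit ZEB2 was not called (edgeR adjusted p 0.166). Between the genotypes after IR, in contrast, both ZEB genes were called once replicate B of irradiated control cells was left out, at 1.42 for ZEB1 and 1.22 for ZEB2.

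The responses of the ZEB genes to IR did not pass. For ZEB1 the log2 change was -0.13 in control cells (SE 0.40, edgeR adjusted p 0.870) and -0.29 in KO1 cells (SE 0.21, edgeR adjusted p 0.363). For ZEB2 it was 0.67 in control cells (SE 0.33, edgeR adjusted p 0.231) and 0.38 in KO1 cells (SE 0.25, edgeR adjusted p 0.318). Without replicate A of irradiated control cells, ZEB2 was called in control cells, at 1.02 (edgeR adjusted p 0.00300).

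The antisense genes ZEB1-AS1 and ZEB2-AS1 share 396 and 1299 exonic bases with the ZEB genes. ZEB1-AS1 had between 28 and 59 counts per library and a log2 change of -0.18 in untreated KO1 cells (edgeR adjusted p 0.863), and ZEB2-AS1 had 0 counts in every library. The summed level of 8 fibroblast markers differed between the genotypes too, from 81.1 to 81.7 CPM in untreated control cells to 119 to 155 in untreated KO1 cells, and from 91.3 to 109 CPM to 173 to 211 after IR. DCN, the gene of the matrix proteoglycan decorin, made up most of it, with 68.1 ± 2.03 CPM (SD, n = 2) in untreated control and 129 ± 23.7 in untreated KO1 cells. COL1A1, the other fibroblast marker tested in untreated cells, lay on the opposite side, with 13.0 ± 2.005 CPM in control and 7.78 ± 2.05 in KO1 (log2 change -0.74, edgeR adjusted p 0.0864), and its log2 change after IR was -1.17 (edgeR adjusted p 0.0612). The median log2 change of the fibroblast markers tested was 0.083 before and -0.70 after IR. COL1A2, COL3A1 and THY1, which define fibroblasts, had at most 3 counts in any library, and the part of these markers in the ZEB values was not tested. In bulk RNA, a change in the number of cells of a type and a change in the RNA per cell cannot be told apart.

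SNAI1 and SNAI2 are paralogs, and they stood apart in level and in response. SNAI1 (ENSG00000124216, chromosome 20, 49982980 to 49988886, plus strand) was the member with the fewest counts, 30 and 41 in control libraries without IR and 10 and 35 with it, against 8 and 8 in KO1 libraries without IR and 7 and 6 with it. These are 1.84 and 2.20, 0.647 and 1.13, 0.450 and 0.544, and 0.361 and 0.294 CPM, above the limit of 3 counts in every library. Each control library exceeded each KO1 library. SNAI1 fell 4.09-fold in untreated KO1 cells, a log2 change of -2.03 (SE 0.48, edgeR adjusted p 0.0145). After IR the log2 change was -1.47 (SE 0.54, edgeR adjusted p 0.354). With IR in control cells it was -1.13 (SE 0.41, edgeR adjusted p 0.122), and in KO1 cells its counts were too low to be tested.

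The direction of SNAI1 held in every alternative fit in untreated cells, but its call was lost without replicate B of the control cells (-1.88, adjusted p = 0.177 from edgeR), without replicate A of the KO1 cells (-1.91, adjusted p = 0.0531) and in DESeq2's Wald test (adjusted p = 0.0609). SNAI1 lies on chromosome 20, whose 419 genes tested had the lowest median log2 change of 23 chromosomes in untreated KO1 cells, -0.27. The part of that shift in the SNAI1 value was not tested.

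SNAI2 had 136 and 122 CPM in control libraries without IR and 132 and 171 with it, against 156 and 111 in KO1 libraries without IR and 185 and 242 with it. The untreated genotypes overlapped, and the 2 irradiated KO1 libraries were the highest of the 8. Its log2 change in KO1 cells was 0.04 before IR (SE 0.17, edgeR adjusted p 0.936) and 0.49 after IR (SE 0.20, edgeR adjusted p 0.426). With IR it was 0.23 in control cells (edgeR adjusted p 0.430) and 0.65 in KO1 cells (SE 0.20, edgeR adjusted p 0.0766). Apart from JAM3, no member had an unadjusted p under 0.05 for a difference in IR response between the genotypes in edgeR.

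**Figure D1:**
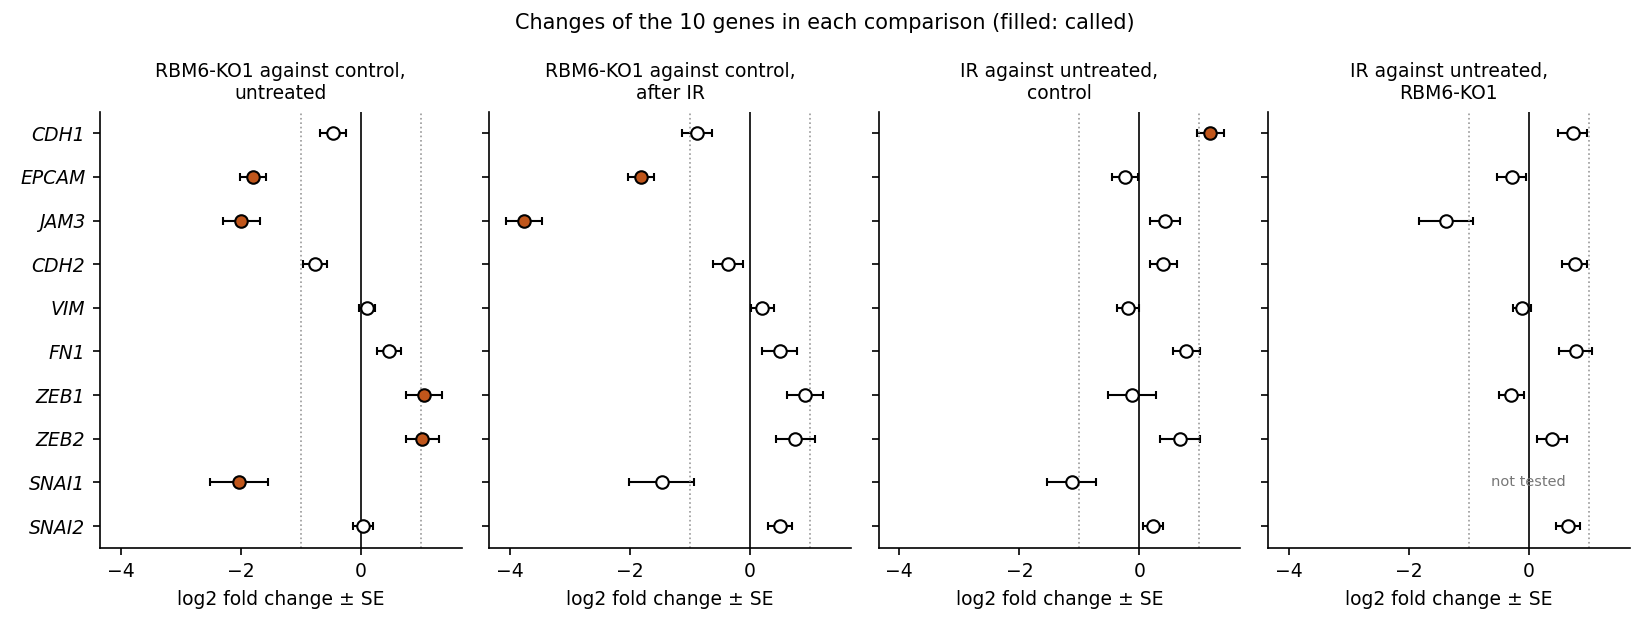
Log2 fold change of each of the 10 genes, with its standard error, in the 4 comparisons, from edgeR on 2 libraries per group. Filled points were called, dotted lines mark a 2-fold change, and SNAI1 was not tested in irradiated against untreated KO1 cells. EPCAM and JAM3 are filled in both genotype comparisons, ZEB1, ZEB2 and SNAI1 in untreated cells only, and CDH1 with IR in control cells.

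The members were set beside 137 other genes of the same biology, in 5 lists written from general knowledge but with earlier results of these data known. Of 28 tested epithelial junction genes, CLDN7, a tight junction claudin, and LLGL2, a polarity protein, were called lower in untreated KO1 cells and none was called higher. Of all genes tested, 1.97% were called lower in untreated KO1 cells and 0.815% after IR. LLGL2 went from 15.9 ± 0.579 to 5.28 ± 1.18 CPM (SD, n = 2), a log2 change of -1.61, and CLDN7 from 16.3 ± 0.216 to 6.52 ± 0.0875, one of -1.33 (adjusted p = 0.000848 for the latter from edgeR). In this list 23 of 28 genes were below 0, with a median log2 change of -0.37, where all genes tested had a median of 0.01 and 49.0% below 0. Of 17 tested regulators of the epithelial state, 14 were below 0 with a median of -0.67, and 2 proteases of the epithelial surface, ST14 (matriptase) and PRSS8 (prostasin), were called lower with log2 changes of -1.04 and -1.10. After IR the medians of these 2 lists were -0.45 and -0.58, no junction gene was called, and ST14 remained the only regulator called, at -1.13 (edgeR adjusted p 0.0336).

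The mesenchymal lists did not stand on the opposite side. Of 30 tested mesenchymal structural genes, 22 were below 0 in untreated KO1 cells with a median of -0.25, and the 3 that were called were all lower: CDH4 (R-cadherin) at -1.04, the actin-binding protein TAGLN at -1.17 and the matrix protease MMP9 at -1.49. After IR 23 of 32 were below 0, with a median of -0.19. CDH4 was then called lower at -1.23, and POSTN, the gene of periostin, which had 15 and 36 counts in irradiated control and 0 in both irradiated KO1 libraries, was at least 7.07-fold lower against the limit of 3 counts per library. The median of the list is the same with POSTN at that bound. Of 18 tested other transcription factors of the transition, none was called in either genotype comparison in edgeR, 14 and 15 were below 0, and ID1, named after its value was seen, was the only one with an adjusted p under 0.05, in untreated cells (log2 change -0.57).

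The TGF-beta pathway, an inducer of the transition, had 15 of 24 tested genes below 0 in untreated KO1 cells, with a median of -0.11. TGFB2, a ligand, was called lower there, from 35.7 ± 1.21 to 8.03 ± 0.671 CPM (SD, n = 2), a log2 change of -2.16. After IR its log2 change was -1.78 and it was not called (edgeR adjusted p 0.143). The list median after IR was -0.04, with 14 of 24 genes below 0. Of the 24 genes, 2 were called lower in untreated cells and 1 after IR, against 1.97% and 0.815% of all genes. PMEPA1, a target gene and feedback inhibitor of the pathway, was called lower in both comparisons, at -1.52 in untreated cells and -1.27 after IR.

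With IR, lists on both sides had medians above 0. In control cells 22 of 29 tested junction genes and 24 of 32 mesenchymal structural genes were above 0, with medians of 0.42 and 0.29. Over the alternative fits these medians ranged from 0.16 to 0.66 and from 0.13 to 0.42. All genes had a median of 0.02 there, with 48.5% below 0. CLDN1, another claudin, was called higher beside CDH1, at 1.203, as were the epithelial factors GRHL3 and KLF4, at 1.68 and 1.72, and the mesenchymal genes ACTA2 (smooth muscle actin), ITGB1 (integrin beta 1) and PDGFRB, at 1.30, 1.01 and 3.004. PDGFRB rested on 5 and 1 counts in untreated and 17 and 53 in irradiated control cells. In these lists 1 of 29 junction genes, 2 of 18 epithelial regulators and 3 of 32 mesenchymal genes were called, against 3.59% of all genes. In KO1 cells the medians of the same lists were 0.41 and 0.35, and 3.11% of all genes were called. GRHL3, ACTA2 and the protease inhibitor SERPINE2 were called higher there, at 1.18, 1.52 and 1.56. So was ITGB3, an integrin gene named after its value was seen, at 2.23 (edgeR adjusted p 0.0485). In KO1 cells 0 of 27 junction genes and 1 of 17 epithelial regulators were called higher. Of 31 mesenchymal genes, 3 were called higher and 1 lower. CDH4 was called lower with IR in KO1 cells, at -1.16, and TGFBR2 and BMP2, a receptor and a ligand of the TGF-beta superfamily, were called higher, at 1.36 and 1.08. None of the other transcription factors in that list was called with IR in either genotype in edgeR.

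The genes whose log2 CPM, centred on its own mean, ran closest to a called member over the 8 libraries were also found, as a description. SOCS3, an inhibitor of cytokine signalling, ran closest to EPCAM, at a root mean square distance of 0.106 on the log2 scale, followed by ARVCF, a catenin that binds cadherins (0.188), and MAP3K9-DT (0.204). For JAM3 the closest were TMEM121B (0.306), PCDHA4 (0.387) and GLDC (0.449), and PCDHA4 shares exons with other protocadherin genes of its cluster. In irradiated KO1 cells PCDHA4 averaged 0 and TMEM121B 0.0245 CPM, under the limit of 3 counts, so their distances depend on the 2 prior counts added before taking logs. PCDHA4 averaged 0.0962 and TMEM121B 0.152 CPM in untreated KO1 cells, also under that limit. For ZEB2 the closest were POGLUT3 (0.0831), RGPD8 (0.120), a member of a family of near-identical copies, and RASSF8 (0.146). For ZEB1 they were INHBA-AS1 (0.226), LACC1 (0.233) and DNAH5 (0.237). DNAH5 averaged 0.176 CPM in untreated control cells, near the limit, and INHBA-AS1 0.380, so their distances depend on the prior counts too. SNAI1 was followed most closely by ADAM8 (0.265), FAM131C (0.298) and SLC6A9 (0.299). The 3 genes listed for ZEB1 and for ZEB2 did not overlap, and so short a list cannot tell whether the 2 profiles differ.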

How the data were processed

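RNA from the 8 libraries was made into TruSeq mRNA libraries and sequenced as paired-end reads. Per the study's methods, alignment was to hg38 and differential expression was tested with DESeq2 by the authors. STAR is named in the submitters' processing notes. The counting tool, the annotation and the strand setting are not given in the sources used here. The authors deposited raw counts per Ensembl gene, without normalization, and no column was left out. Symbols, positions and lengths came from GENCODE v44, which held 57392 of the 58233 identifiers. Counts were tested in R 4.3.3 with edgeR 4.0.16 (TMM, filterByExpr, quasi-likelihood test, Benjamini-Hochberg adjustment over all genes tested), each genotype or IR comparison on its own 4 libraries and the difference in IR response on all 8. A standard error is the log2 fold change divided by the square root of F. The script was tested on simulated data. With 2 libraries per group, no exact permutation test of 1 group against another can reach p under 0.05. The p-values measure the spread between these libraries, with dispersions moderated over all genes in edgeR. Named genes were all 10 members, up to 3 called genes of each list by p in each comparison, and the 3 nearest profiles of each member called between genotypes. Alternatives were other normalizations, DESeq2 1.42.0, other filters, other thresholds, a replicate block, 1 fit over all libraries and leaving out each library. The crossed replicate block and the removal of GC, length and expression trends were chosen after seeing the data. The members and lists were chosen with earlier results of these data known. The result of 1 gene of the mesenchymal list is not reported here.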

Additional observations from a re-analysis of the deposited data

Results flagged for a closer look

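JAM3 was singled out because its responses to IR pointed in opposite directions in the 2 genotypes. All irradiated control libraries were above the untreated ones and all irradiated RBM6-KO1 libraries below theirs. The difference between the responses was -1.80 on the log2 scale (standard error 0.38), with the smallest unadjusted p of 16549 genes (0.000707 from edgeR), and it did not pass after adjustment over all genes (adjusted p = 0.99998 from edgeR). The RBM6-KO1 values rest on 30 and 21 counts before IR and 12 and 12 after it. With 1 library left out at a time the difference ranged from -1.92 to -1.66.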

How the results depend on the processing

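What libraries with the same replicate letter share is not stated. Deviations of same-letter libraries correlated at 0.08 and 0.35 in the genotype comparisons (untreated, after IR) and at -0.18 and -0.26 in the IR comparisons (control, RBM6-KO1). With a replicate block, calls over all genes went from 182 to 541 after IR. The called members stayed at 5, 2, 1 and 0 in number and no member's call changed. Between the genotypes after IR, however, the block brought 5 uncalled members under an adjusted p of 0.05, each with less than a 2-fold change. These edgeR adjusted p were 0.000208 for CDH1, 0.0118 for FN1, 0.0133 for ZEB1, 0.00384 for ZEB2 and 0.000955 for SNAI2. The FN1 difference in IR response turned from 0.0044 to -0.00996 with the block. The crossed block gave 965 genes and 2 members (CDH1 and SNAI1) with IR in control cells and 1222 genes and 1 member (JAM3) in RBM6-KO1 cells. Between untreated genotypes, 952 genes passed on adjusted p alone and 118 against a 2-fold null (glmTreat), which left 1 member, and DESeq2 and the fit of all 8 libraries each left 3 members. After IR, DESeq2 called 319 genes, no filter 506, at least 10 counts in every library 71, glmTreat 46 with 1 member, and all libraries together 340. With IR in control cells, 881 genes passed on adjusted p alone, 962 without a filter, and 17 with 0 members by glmTreat. With IR in RBM6-KO1 cells these counts were 884, 1011 and 12, and the fit of all 8 libraries called 1 member. For the difference in response, no filter gave 1 gene and an FN1 value of -0.019, and at least 10 counts gave -0.011. Leaving out 1 library, where a lone library is assumed to vary like the others, gave 399 to 658 genes and 2 to 5 members between untreated genotypes, 169 to 477 and 2 to 4 after IR, 287 to 1406 and 0 to 3 with IR in control cells, and 289 to 1563 and 0 to 2 in RBM6-KO1 cells. Signs turned in the same fits for FN1 (-0.049 to 0.855) and SNAI2 (-0.24 to 0.28) between untreated genotypes, ZEB1 with IR in control cells (-0.65 to 0.66) and VIM in RBM6-KO1 cells (-0.25 to 0.036). They also turned in the difference in response for EPCAM (-0.22 to 0.10), VIM (-0.074 to 0.28), FN1 (-0.38 to 0.51), ZEB1 (-0.97 to 0.38) and ZEB2 (-0.76 to 0.22). The causes were not tested. Of the alternative values of single members, 676 kept direction and call, 18 lost a call, 12 gained one, 24 changed sign and 2 moved otherwise. SNAI1 could not be tested at 10 counts per library.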

Other observations

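Some genes that mark other cell types also differed between the genotypes. KDR, the VEGF receptor of endothelial cells, had 103 and 65 counts in untreated control cells and 10 and 0 in untreated KO1 cells, a log2 change of -3.98, and one of -3.41 after IR (edgeR adjusted p 0.0264). PECAM1, another endothelial marker, lay on the opposite side, with log2 changes of 1.16 before and 1.56 after IR (edgeR adjusted p 0.0681 and 0.0865), and TEK had one of 0.49 after IR (edgeR adjusted p 0.862). The median of the 3 endothelial markers tested after IR was 0.49. The summed level of 5 endothelial markers, KDR included, lay between 6.11 and 12.4 CPM in control and between 4.28 and 7.28 in KO1 libraries. CDH5, the cadherin that defines endothelium, had 0 counts in 6 libraries, and 4 and 1 in irradiated control cells. CD14, a coreceptor of bacterial lipopolysaccharide, went from 15.5 ± 4.88 to 4.48 ± 1.16 CPM (SD, n = 2), a log2 change of -1.81. The other 4 leukocyte markers had at most 3 counts in any library. DCN was called higher in KO1 cells after IR, with a log2 change of 1.11 (edgeR adjusted p 0.0389). None of the 11 breast epithelial markers was called in any of the 4 comparisons in edgeR, and KRT7, KRT18 and KRT14, chosen here after their values were seen, had an adjusted p under 0.05 between the untreated genotypes, with log2 changes of -0.57, -0.63 and 0.78. The part of these genes in the member values was not tested.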
